A study of Homo sapiens with 6 samples.

Results

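Here 2 RNA-seq libraries whose ELK3 level was the lowest of the series are set against 2 control libraries, which makes 4 of the 6 libraries in all. All 24462 gene symbols of the count tables entered, after lines that share a symbol had been summed, and 15386 genes had enough counts to be tested. Every library is labelled as MDA-MB231, the triple-negative breast cancer cell line MDA-MB-231 from ATCC, and was made with a Lexogen QuantSeq kit, which reads the 3′ ends of transcripts. The controls are MDA-MB231 cells infected with a control retrovirus. No transfection time or DNA amount is recorded for them. The libraries compared with them, called ELK3-labelled below, carry the label of a stable ELK3 knockdown line (ELK3KD-231), made with retroviral shRNA, that received 1 µg of pLenti-cMyc-DDK-ELK3 with Lipofectamine 2000 and was collected 48 h later. The remaining 2 libraries, called vector-labelled, carry the same label with the plasmid pLenti-cMyc-DDK in place of the ELK3 plasmid, at the same amount and time. They are used only to show where the ELK3-labelled libraries differ from both other groups. The labels do not say whether the knockdown line is 1 clone, nor whether replicates are separate cultures, so p-values measure only the spread between these libraries, which may be technical.

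The sample titles and the count columns give opposite names to the transfected libraries. Libraries titled as knockdown plus ELK3 have count columns named KD, and libraries titled as knockdown plus vector have columns named KD+E. ELK3 stood at 20.4 and 22.6 CPM (counts-per-million units, scaled by TMM) in the ELK3-labelled libraries. Its level was 129 and 124 CPM in the control pair, and the vector-labelled pair had 759 and 697 CPM. The 3 groups did not overlap, and the libraries titled as re-expressing ELK3 held the least. These libraries were chosen with their low ELK3 known. The tests of ELK3 that follow therefore describe that choice and are not independent support. ELK3 was 5.83-fold lower than in controls, a log2 fold change of -2.54 ± 0.11 (± standard error of the fit, here and below, with 2 libraries a group; edgeR quasi-likelihood test, adjusted p = 3.53e-20), and 33.6-fold lower than in the vector-labelled libraries (adjusted p = 3.63e-28). The kit reads transcript ends, and whether the plasmid's ELK3 transcript carries the end that was counted is not given in the sources used here, so these counts need not check expression from the plasmid. Directions below are stated for the libraries as measured, and "ELK3-labelled" is only their name. Whether the titles or the column names are the right ones cannot be told apart from the labels.

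A second conflict concerns the cell line. Genes known to be high in MDA-MB-231 cells and genes known from HEK293, an embryonic kidney line widely used to package viruses, were compared as lists, with the caution that both lists were chosen with earlier results of these data known. Of 27 MDA-MB-231-typical genes tested, 27 were lower in the ELK3-labelled libraries and 0 were higher. Over all 15386 genes tested, 30.8% were lower and 31.8% higher. The list had a median log2 fold change of -3.27 against 0.02 over all genes. Their summed level was 7742 and 7554 CPM in the controls and 1316 and 1254 CPM in the ELK3-labelled libraries. Of 19 HEK293-typical genes, 17 were higher and 0 lower (median 3.49), and their sum went from 261 and 251 to 1399.8 and 1402 CPM. Other lists used below hold 16 of these 19 genes and 25 of the MDA-MB-231-typical genes, so their counts are not independent. MDA-MB-231 cells are known to have lost CDKN2A, on chromosome 9. This gene is itself on the HEK293-typical list, so its values are not separate from the count above. CDKN2A, which encodes the p16 and ARF tumour suppressors, stood at 13.4 and 17.6 CPM in the controls and at 175 and 175 CPM in the ELK3-labelled libraries. MTAP, a methionine salvage enzyme gene next to it, stood at 3.56 and 3.87 CPM in the controls and 30.1 and 26.6 CPM in the ELK3-labelled libraries. Receptor genes that define the triple-negative class stood in the controls at 18.8 and 20.9 CPM (ESR1), 0.418 and 0.215 CPM (PGR) and 41.6 and 36.1 CPM (ERBB2), and in the ELK3-labelled libraries at 17 and 16.1, 0 and 0.638 and 23.4 and 21.5 CPM. Both lists moved in the vector-labelled libraries too, where the MDA-MB-231-typical genes summed to 1414 and 1369 CPM and the HEK293-typical genes to 832 and 868 CPM. Every comparison with controls below therefore mixes the labelled knockdown, the transfection and what may be another cell line, and these cannot be told apart.

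Genes used as markers of other tissues, and of luminal breast cells, had counts in every group. The defining T-cell marker CD3D stood at 0.418 and 0.86 CPM in the controls and 0.318 and 0.638 CPM in the ELK3-labelled libraries, and of 16 lymphocyte and NK markers 6 were lower (1 without ELK3-labelled replicate 1, 3 without control replicate 2) and 2 higher, with sums of 310.5 and 318 CPM in the controls and 292 and 309 CPM in the ELK3-labelled libraries. With library totals 0 of the lymphocyte and NK markers were lower, and with DESeq2 2 were. Liver transcripts summed to 14885 and 15359 CPM in the controls and 12114 and 12714 CPM in the ELK3-labelled libraries. Of 22 liver transcripts, 18 were lower (median of the list -0.28). With library totals 2 liver transcripts were lower. Luminal breast markers had 6 of 10 higher and 1 lower, with sums of 438 and 426 CPM and 776 and 729 CPM. Endothelial markers summed to 55.2 and 52.7 CPM in the controls against 27.7 and 24.7 CPM, with 1 of 9 called lower and 0 higher. Myeloid markers summed to 179 and 189 CPM in the controls against 130.1 and 136 CPM, with 2 of 12 lower and 0 higher. Fibroblast markers summed to 65.2 and 66.7 CPM in the controls against 132 and 115 CPM, with 4 of 8 higher and 1 lower. That lower call ended with library totals, with DESeq2 and on leaving out either control or ELK3-labelled replicate 2. Other lists also hold 7 of the 10 luminal, 6 of the 8 fibroblast and 1 of the 16 lymphocyte genes tested. A sum therefore need not stand for cells of that type. In bulk RNA, fewer cells of a type and less RNA per cell cannot be told apart, and the part of these transcripts in the differences below was not tested.

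ELK3 (also called Net) belongs with ELK1 and ELK4 to the ternary complex factors, ETS-family proteins that sit on DNA beside the serum response factor SRF. SRF binds the CArG box, and the partner it takes there directs it either to growth-signal genes, through ternary complex factors and the ERK kinases, or to cytoskeletal genes, through the actin-sensing MRTF coactivators. ELK3 is known as a repressor that ERK phosphorylation turns into an activator, and in breast cancer cells it has been studied for migration and invasion. The title of the series links it to mitochondrial dynamics and to natural killer cells.

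A CArG box (searched by that name on both strands, over 300 bases from 250 before to 50 after the start) was present in 1.29% of 35116 promoters taken from RefSeq on GRCh38.p14. Of 34 tested genes in a list of actin and SRF-MRTF genes, 31 had a promoter in that table. The windows below lie upstream of the transcription start on that build and are shown because they carry the element of SRF, the partner of ELK3, while their genes moved in different directions. The ETS motif that ternary complex factors bind beside it was not searched. Capitals mark CArG boxes, and each window is written 5′ to 3′ on the gene's own strand.

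SRF (chr6:43171219-43171268, plus strand): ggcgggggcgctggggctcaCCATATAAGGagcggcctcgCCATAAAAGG
EGR1 (chr5:138465354-138465425, plus strand): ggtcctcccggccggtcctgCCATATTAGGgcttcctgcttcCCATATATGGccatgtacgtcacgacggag
CNN2 (chr19:1026499-1026548, plus strand): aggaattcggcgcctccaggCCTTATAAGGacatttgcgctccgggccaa
TPM4 (chr19:16067345-16067394, plus strand): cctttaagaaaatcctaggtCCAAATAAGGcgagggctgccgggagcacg
ACTG1 (chr17:81512864-81512913, minus strand): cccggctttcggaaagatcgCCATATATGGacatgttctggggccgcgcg
FLNA (chrX:154374699-154374748, minus strand): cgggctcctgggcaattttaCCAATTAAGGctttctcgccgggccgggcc

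SRF, whose own promoter holds 2 boxes, had 228 and 342 CPM in the controls and 139.5 and 166 CPM in the ELK3-labelled libraries. The controls differed widely for SRF but both lay above the ELK3-labelled pair, and the call was lower (-0.89 ± 0.17, adjusted p = 0.00136). EGR1, a zinc-finger factor that serum induces within minutes and whose promoter also holds 2 boxes, went the other way, from 41.2 and 37.9 to 114 and 98.6 CPM (1.42 ± 0.12, adjusted p = 1.03e-12). With 1 box in the window, CNN2 (calponin 2) fell from 167 and 159.6 to 35.6 and 35.9 CPM and TPM4 (tropomyosin 4) from 793 and 831 to 216 and 219 CPM. The non-muscle actin gene ACTG1 rose from 3496 and 3928 to 5014 and 4803 CPM and the actin cross-linker gene FLNA from 608 and 505 to 733 and 715 CPM, changes of 0.40 and 0.38 on the log2 scale. The genes were picked for their different directions, a match is a description of letters, and binding was not measured. Actin genes have many processed copies in the genome, and how shared reads were counted is not given in the sources used here.

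Transcripts differed widely between the ELK3-labelled libraries and the controls. At an adjusted p under 0.05, 4891 genes (31.8% of those tested) were higher and 4742 (30.8%) were lower. They are the shares over all genes for every list count against controls in this report. At least 2-fold changes made up 2455 higher (16.0%) and 1882 lower genes (12.2%), and 631 and 345 genes passed 8-fold. With library totals in place of TMM scaling the split moved from 50.8% to 61.1% of calls in the higher direction, and the median log2 fold change of all genes moved from 0.02 to 0.18. Each control held 5087967 or 5028028 counts and each ELK3-labelled library 5960518 or 9131214, so that 3 counts, the upper limit that 0 counts allow, amount to 0.329 to 0.597 CPM before scaling. Across genes (not independent of each other), log2 CPM correlated with an r of 0.986 and 0.99 within these groups and of 0.864 to 0.869 between them.

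**Figure D1:**
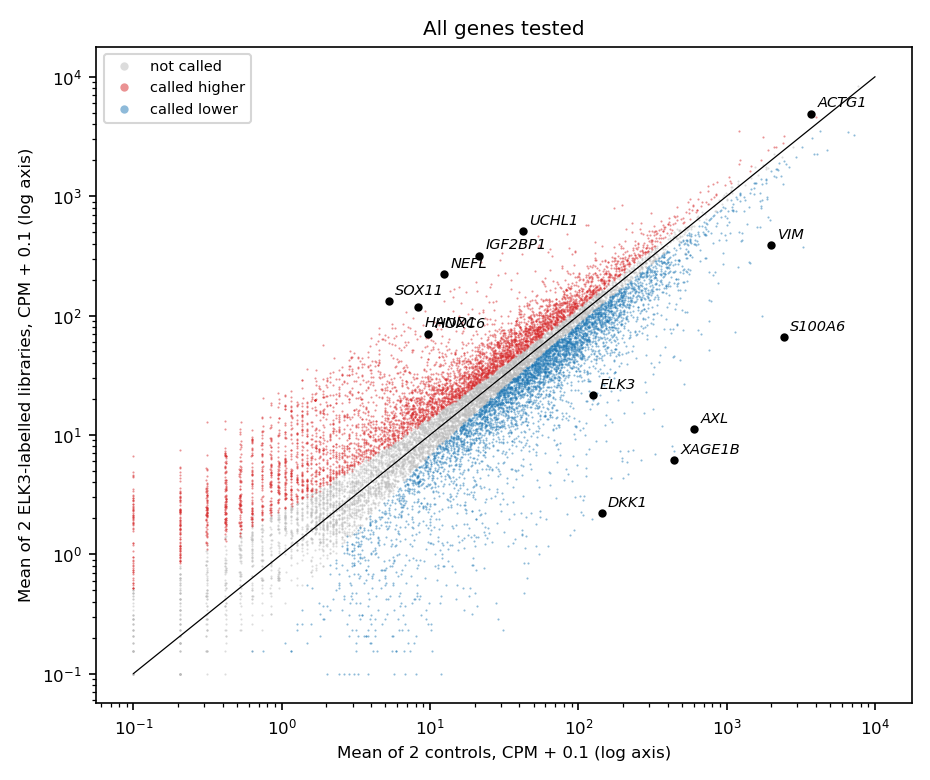
Mean CPM of each of the 15386 tested genes, less a pair of X-inactivation transcripts, in the 2 controls (x axis) and the 2 ELK3-labelled libraries (y axis), both on log axes after adding 0.1; colours show the call and the line marks equality. Among the labelled genes, S100A6, VIM, AXL, XAGE1B, DKK1 and ELK3 lie below the line and SOX11, NEFL, IGF2BP1, HAND1, UCHL1 and HOXC6 above it.

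Abundant genes were counted by the size of their change, each side having passed the filter through the group where it is high. Of 1418 called genes with at least 100 CPM in the controls that were lower, 33 were lower by 16-fold or more and 20 by 32-fold or more, up to 70.6-fold. Of 850 called genes with at least 100 CPM in the ELK3-labelled libraries that were higher, 4 passed 16-fold and 0 passed 32-fold, with a maximum of 25.4-fold. These counts describe these libraries, and over all tested genes the 8-fold counts given above lean the other way.

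Of the 15 abundant genes that fell most, 14 are described here. Among them were the cancer-testis antigen gene XAGE1B (412 and 477 CPM in the controls, 4.93 and 7.23 in the ELK3-labelled libraries) and its near-identical neighbour XAGE1E. DKK1, an antagonist of WNT receptors, went from 133 and 154 to 1.91 and 2.34 CPM (-6.04 ± 0.17). PTX3, a soluble pattern-recognition protein, went from 214 and 221 to 4.45 and 4.78 CPM. At the cell surface, AXL, a receptor kinase tied to invasion and drug resistance, went from 624 and 587 to 10.5 and 11.6 CPM, CDCP1, a substrate of SRC kinases, from 322 and 337 to 6.84 and 6.91 CPM, and NT5E (CD73), which makes adenosine, from 249.9 and 277 to 6.36 and 5.85 CPM. No ELK3-labelled library came near a control for any of these genes. MYEOV, PLAU, CXCL8, COL8A1, LAMB3, SLC43A3 and SLC17A9 were among them too, with log2 fold changes from -6.11 (MYEOV) to -5.25 (SLC17A9) and a largest adjusted p of 3.34e-23.

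SOX11 and NEFL led the abundant genes that rose, of which 13 of the 15 are described here; a pair of X-inactivation transcripts that rank between NEFL and HOTAIRM1 is left out. SOX11, a factor of embryonic neural and kidney tissue, stood at 5.44 and 4.95 CPM in the controls and 127 and 137 in the ELK3-labelled libraries (4.66 ± 0.15, adjusted p = 2.63e-23), and NEFL, the light neurofilament subunit, at 10.9 and 13.8 CPM in the controls against 223 and 220.0 CPM (4.17 ± 0.12). HAND1, a helix-loop-helix factor of heart and placenta, went from 9.41 and 7.1 to 120.4 and 117 CPM. IGF2BP1, a fetal RNA-binding protein, rose from 21.1 and 21.5 to 320.1 and 315 CPM, and UCHL1, a neuronal deubiquitinase, from 46.8 and 37 to 507 and 505 CPM. TET1, which oxidises methylated cytosine, rose from 9.41 and 8.82 to 119 and 100.2 CPM, and NRARP, a feedback inhibitor of Notch, from 21.8 and 21.9 to 292 and 271 CPM. The others were HOTAIRM1, PRAME, PCDH9, CDKN2A, SNAR-B1 and SNAR-B2, of which the last 2 are near-identical copies.

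**Figure D2:**
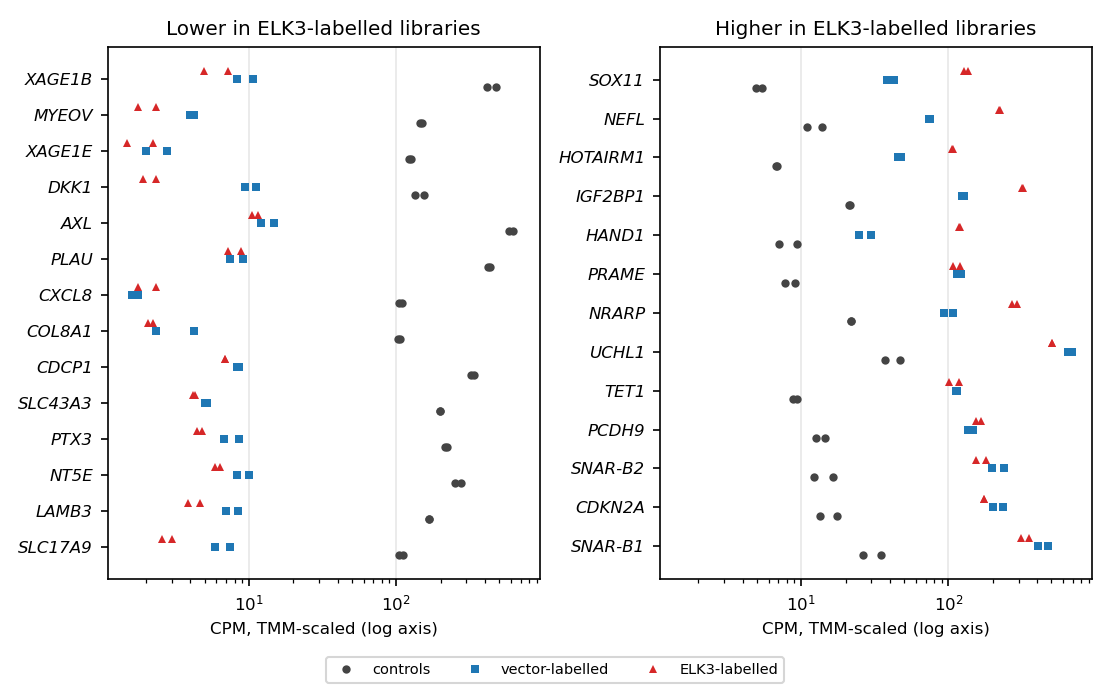
TMM-scaled CPM on a log axis in each library for 14 of the 15 abundant genes with the lowest and 13 of the 15 with the highest log2 fold change against controls; each point is 1 library. Every ELK3-labelled library lies below both controls for the genes on the left and exceeds both for those on the right; the vector-labelled libraries mostly lie nearer the ELK3-labelled ones on this axis, and past them for UCHL1, CDKN2A, SNAR-B1 and SNAR-B2.

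Other ternary complex factors were lower as well. ELK1 went from 59.8 and 62.4 to 38.8 and 40.2 CPM (-0.63 ± 0.11, adjusted p = 1.07e-05) and ELK4 from 40.8 and 33.5 to 12.9 and 11.6 CPM (-1.61 ± 0.16, adjusted p = 2.32e-10). Both pairs were separate, as held for 80.2% of all genes tested. Against the vector-labelled libraries ELK1 was lower (-0.31 ± 0.11, adjusted p = 0.0167) and ELK4 was not called (-0.23 ± 0.18, adjusted p = 0.286). SRF, lower than in controls, was higher than in the vector-labelled libraries (0.81 ± 0.18, adjusted p = 0.00386). The MRTF gene MKL1 was not called (-0.26 ± 0.24), and MKL2 was called higher (0.71 ± 0.23), a call that ended with DESeq2 (adjusted p = 0.0569), without control replicate 1 (0.0799) and without ELK3-labelled replicate 2 (0.136). Of 16 other ETS factors, 9 were lower and 4 higher, beside 30.8% lower and 31.8% higher over all genes tested. The 3 PEA3-group factors, which ERK signalling induces and which drive invasion genes, were all lower: ETV5 went from 98.1 and 96.8 to 6.04 and 5 CPM, ETV4 from 25.3 and 21.3 to 1.43 and 1.28 CPM and ETV1 from 38.5 and 44.3 to 4.61 and 4.36 CPM. ETV5 stood at 73.2 and 68.8 CPM in the vector-labelled libraries, 13.1-fold above the ELK3-labelled ones (adjusted p = 3e-20), so its low level set the ELK3-labelled libraries apart from both groups. ETS1, the founding member, went from 154 and 141 to 32.6 and 33.4 CPM, and ELF2 rose from 29.3 and 32.5 to 57.2 and 62.5 CPM.

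**Figure D3:**
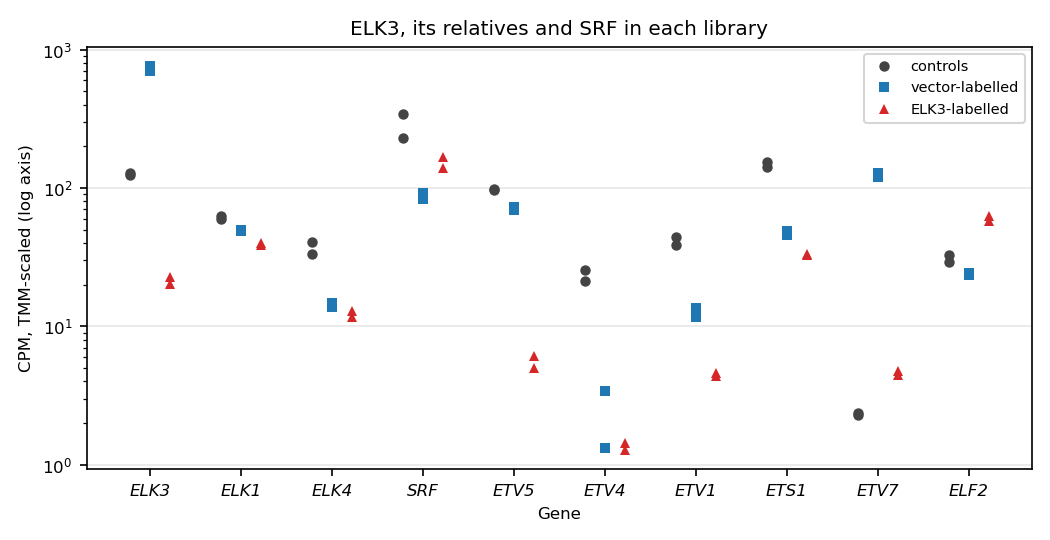
TMM-scaled CPM on a log axis of ternary complex factors, SRF and 6 other ETS genes in each of the 6 libraries; each point is 1 library. ELK3 and ETV5 lie lowest in the ELK3-labelled libraries, while ETV7 lies highest in the vector-labelled ones.

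Negative feedback genes of the ERK pathway were mostly lower than in controls. Of 12 ERK feedback genes, 10 were lower and 0 higher (median -1.69). The list summed to 563 and 576 CPM in the controls and 149 and 143 CPM in the ELK3-labelled libraries. The vector-labelled sum was 135 and 129 CPM. Against that group 7 members were higher and 3 lower (median 0.6), beside 30.0% and 29.6% of all genes tested. DUSP6, a phosphatase that switches ERK off and is itself induced by ERK, went from 136 and 136 to 18.9 and 17.5 CPM (-2.91 ± 0.12), and SPRY4, a sprouty inhibitor of receptor signalling, from 23.4 and 24.5 to 1.27 and 1.28 CPM (-4.21 ± 0.28). The exceptions, DUSP2 (-0.51 ± 0.29) and SPRY1 (-0.24 ± 0.26), were not called. Upstream, EGFR went from 164 and 159 to 31.3 and 30 CPM and its ligands AREG from 38.5 and 44.9 to 1.27 and 1.49 CPM and HBEGF from 131 and 126 to 21.6 and 20 CPM. The receptor kinase gene MET went from 149.9 and 148 to 46.8 and 46.4 CPM. Other receptor kinases of development were higher: FGFR2 (2.41 ± 0.22), FGFR3 (2.92 ± 0.21), FLT1 (3.45 ± 0.17) and EPHA7 (3.43 ± 0.29). Over 30 receptor kinase genes, 15 were higher and 11 lower, and over 31 growth factor genes 9 and 16. Of all genes tested, 31.8% were higher and 30.8% lower.

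Of 28 immediate early genes, the first to respond to serum, 8 were higher and 11 lower (median -0.11), near the shares of 31.8% and 30.8% over all genes tested. The AP-1 subunit FOSL1, which accumulates under lasting ERK activity, went from 189 and 193 to 6.52 and 7.97 CPM (-4.69 ± 0.13), IER3, a survival gene of stressed cells, from 1865 and 1610.0 to 92.7 and 106 CPM (-4.12 ± 0.10) and PHLDA1 from 375 and 359 to 13.2 and 10.3 CPM (-4.99 ± 0.12). The growth regulator MYC went from 57.3 and 60.9 to 17.2 and 12 CPM. Higher, beside EGR1, were the AP-1 genes FOS, from 8.78 and 10.1 to 47.9 and 32.9 CPM, and FOSB, from 3.76 and 5.16 to 33.5 and 30.4 CPM. FOS and EGR1 were higher than in the vector-labelled libraries as well, 2.06-fold (adjusted p = 1.4e-06) and 4.11-fold (adjusted p = 6.22e-16).

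Cytoskeletal genes of the SRF-MRTF arm were mostly lower. Of 34, 22 were lower and 9 higher (median -1.28), and their summed level went from 13818 and 13855 to 9317 and 9151 CPM. The vector-labelled sum was lower still, at 6176 and 6308 CPM. Against that group 15 members were higher and 11 lower (median 0.05), beside 30.0% and 29.6% of all genes tested. ACTN1, an actin cross-linker of focal adhesions, went from 827 and 700.4 to 128 and 142 CPM (-2.50 ± 0.09), the actin-capping gene CAPG from 230.5 and 176 to 15.1 and 15 CPM (-3.75 ± 0.13) and the myosin light chain gene MYL9 from 80.3 and 57.2 to 8.9 and 9.04 CPM (-2.93 ± 0.18). Smooth muscle actin, ACTA2, went against them, from 6.69 and 6.45 to 41 and 32.6 CPM (2.47 ± 0.20), with the LIM protein gene FHL1, from 9.62 and 11.2 to 51.7 and 57.1 CPM. Targets of YAP and TEAD, which also answer to the actin skeleton, were lower in 20 of 23 and higher in 2 (median -1.78). They summed to 998 and 950 CPM in the vector-labelled and 917 and 942 CPM in the ELK3-labelled libraries (median change between these groups 0.04). Among them CYR61 went from 732 and 797 to 87 and 92.1 CPM, CTGF from 236 and 232 to 59.3 and 52.2 CPM and ANKRD1 from 1062 and 1210.0 to 65.7 and 80.5 CPM. The 2 that rose, AMOTL1 (0.24 ± 0.10) and GADD45B (0.23 ± 0.10), rose little: 1 stayed called on leaving out control replicate 1 or 2, and 0 on leaving out any ELK3-labelled library or with DESeq2.

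**Figure D4:**
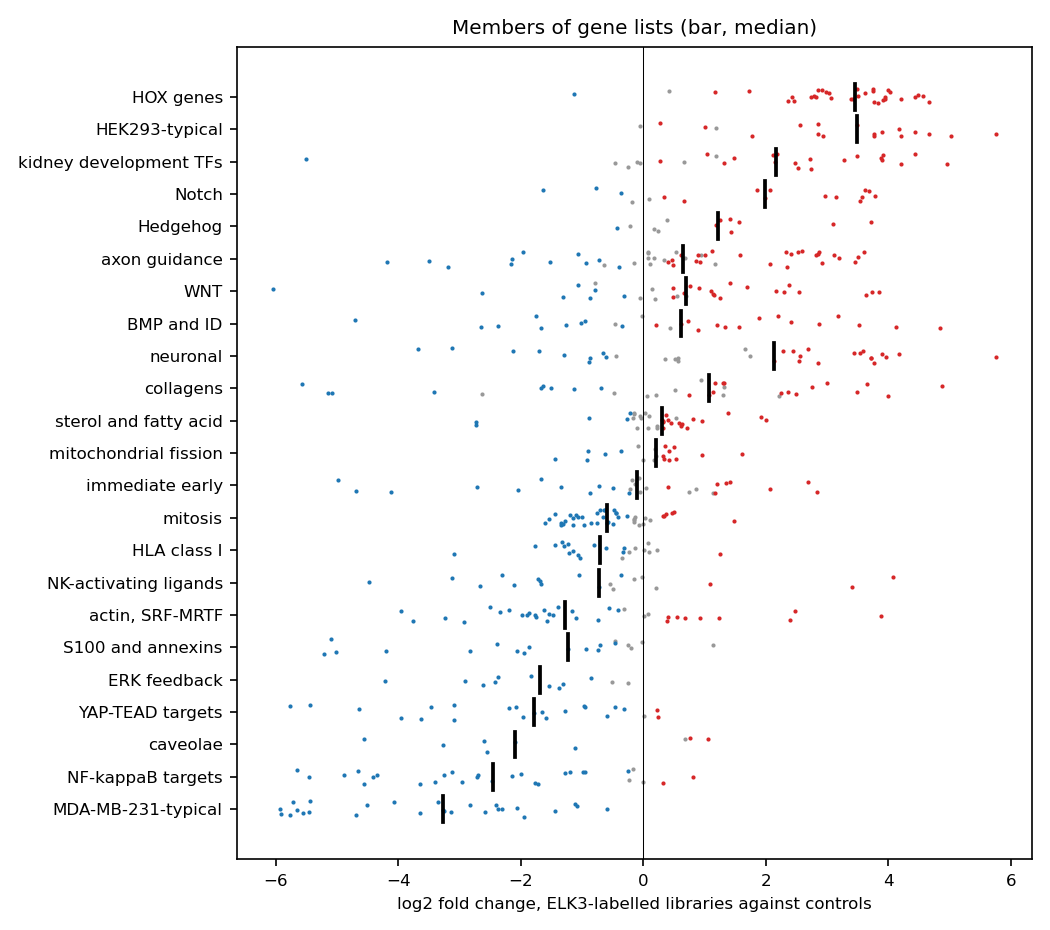
Log2 fold change against controls of each tested member of 23 gene lists (points; red called higher, blue called lower, grey not called) with the list's median (bar). HOX genes lie almost wholly above 0 and ERK feedback, YAP-TEAD, NF-kappaB and MDA-MB-231-typical genes almost wholly below it, while immediate early, neuronal and WNT genes spread to both sides.

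Inflammatory genes were low. Of 29 NF-kappaB targets and cytokines, 24 were lower and 2 higher (median -2.46). The chemokine genes CXCL8 and CXCL1 went from 109 and 105 to 1.75 and 2.34 CPM and from 43.1 and 40.6 to 1.11 and 1.59 CPM, and IL6, IL11 and LIF, cytokines that share the receptor gp130, had log2 fold changes of -5.46, -3.65 and -3.25. IL1A, an alarm cytokine, went from 6.9 and 9.25 to 0.636 and 0.106 CPM and stood at 5.29 and 5.4 CPM in the vector-labelled libraries, where it was 15.7-fold higher than here (adjusted p = 8.74e-08). The list as a whole was low in both transfected groups, with sums of 641 and 637 CPM in the vector-labelled and 518 and 509 CPM in the ELK3-labelled libraries. Against the vector-labelled libraries 3 members were higher and 7 lower (median -0.13), beside 30.0% and 29.6% of all genes tested. CXCL8 was not called there (adjusted p = 0.519). Subunits of the factor itself were lower by less, NFKB1 at -0.95 ± 0.12 and NFKB2 at -2.00 ± 0.13. CXCL16 (0.81 ± 0.16) and SOD2 (0.33 ± 0.10) were the higher members. Of 36 interferon-stimulated genes, 19 were lower and 6 higher: GBP1 (-3.35 ± 0.21) and IFIT3 (-2.37 ± 0.21) were lower, while BST2 (tetherin) rose from 25.3 and 20 to 108 and 115 CPM and USP18 was higher (2.39 ± 0.28).

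The title of the series names natural killer cells, which weigh activating ligands against HLA class I on a target cell. Of 22 genes of class I presentation, 14 were lower and 1 higher (median -0.7), and 6 were lower when symbols that stand on several lines of the table were left out. The light chain B2M went from 1371 and 1375 to 581 and 596 CPM, and PSMB8, an immunoproteasome subunit, from 66.1 and 74.8 to 6.68 and 9.46 CPM (-3.09 ± 0.17). HLA-E was lower (-1.07 ± 0.09), while HLA-C was not called (-0.14 ± 0.09); HLA genes share sequence, and how shared reads were counted is not given in the sources used here. Of the activating ligands, 19 were tested, 11 were lower and 3 higher. The lower count was 8 when symbols on several lines were left out. It was 7 with a minimum of 10 CPM in 2 libraries, where fewer genes were tested. The NKG2D ligand MICA went from 54.2 and 52 to 10.7 and 10.8 CPM and MICB from 112 and 106 to 31.6 and 35.8 CPM. ULBP1, another NKG2D ligand, went from 2.72 and 0.43 to 16.2 and 17.9 CPM (3.41 ± 0.34), and NCR3LG1 (B7-H6), the ligand of NKp30, from 1.05 and 0.86 to 14 and 18.6 CPM (4.09 ± 0.35). None of these 4 ligands overlapped between controls and ELK3-labelled libraries, as held for 80.2% of all genes tested. Inhibitory and adenosine-pathway genes had 9 of 13 lower and 0 higher, among them LGALS1 (galectin 1), from 614 and 669 to 71.4 and 79.2 CPM, and CD274 (PD-L1), from 14.4 and 9.46 to 0.477 and 1.17 CPM.

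Genes of proteolysis at the cell surface were mostly lower. In the urokinase system 9 of 10 genes were lower and 0 higher: the protease PLAU went from 431 and 423 to 7.16 and 8.82 CPM (-5.71 ± 0.12) and its receptor PLAUR from 313 and 333 to 36.4 and 36.8 CPM (-3.14 ± 0.10). PLG, the plasminogen gene counted in that list, is a liver transcript. Of 29 matrix proteases and their inhibitors, 17 were lower and 5 higher, beside 30.8% lower and 31.8% higher over all genes tested. MMP14, the membrane-bound collagenase, went from 52.1 and 36.1 to 2.23 and 1.7 CPM. Laminin genes were higher in 3 and lower in 6 of 11, and integrin genes in 5 and 9 of 20 (3 higher without control replicate 2). The epithelial laminin chain LAMB3 (-5.32 ± 0.14) and the laminin receptor chains ITGA6 (-3.64 ± 0.11) and ITGA3 (-4.86 ± 0.15) were lower. LAMA1 and LAMA4, chains of embryonic and vascular basement membranes, were higher, from 0.209 and 1.07 to 18.8 and 21.7 CPM and from 1.46 and 1.29 to 21.1 and 16.7 CPM. Of 33 collagens, 15 were higher and 9 lower. COL13A1, a membrane collagen, went from 218 and 208 to 4.77 and 6.91 CPM and COL6A1 from 53.1 and 51 to 134 and 124 CPM.

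Genes of calcium-binding proteins were mostly lower. Of 19 S100 and annexin genes, 14 were lower and 0 higher (1 higher without ELK3-labelled replicate 1). S100A6 (calcyclin) went from 2407 and 2457 to 62.3 and 68.8 CPM (-5.21 ± 0.10), and ANXA2, which carries plasminogen and its activator on the surface, from 1366 and 1519 to 275 and 276 CPM. Of 9 caveolar genes, 6 were lower and 2 higher. The coat genes CAV1 and PTRF went from 683 and 670.1 to 72.2 and 68.8 CPM and from 813 and 761 to 122 and 144 CPM. Of 26 mesenchymal genes, 16 were lower and 7 higher. The hyaluronan receptor gene CD44 went from 282 and 282 to 27.2 and 27.6 CPM. The intermediate filament gene VIM went from 2081 and 1922 to 408 and 364 CPM. Keratins split, with KRT7 (-5.92 ± 0.20) and KRT80 (-5.35 ± 0.19) lower and KRT8 (1.30 ± 0.10) and KRT18 (0.72 ± 0.09), the pair of simple epithelia, higher. The adhesion molecule CDH2 (N-cadherin) rose from 19.2 and 21.7 to 157 and 166 CPM, and CDH1 (E-cadherin) was not called (-0.16 ± 0.22). Of 25 genes of tight junctions, desmosomes and epithelial splicing, 12 were higher and 8 lower, with DSP (desmoplakin) at 1.66 ± 0.09 and CLDN4 (claudin 4) at -5.11 ± 0.18.

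In the other direction, HOX genes, which give cells their position along the body, rose nearly as a block. Of 34 tested, 32 were higher and 1 lower (median 3.46), and their summed level went from 98.1 and 95.9 CPM in the controls to 837 and 872 CPM. Members of all 4 clusters were higher: HOXA5 went from 3.76 and 4.73 to 61.5 and 53.6 CPM, HOXB4 from 5.65 and 6.67 to 36.9 and 30.2 CPM, HOXC6 from 10.5 and 8.82 to 70.9 and 69.4 CPM and HOXD11 from 4.6 and 6.24 to 82.8 and 85.2 CPM. HOXD13, at the limb end of its cluster, went from 1.67 and 1.07 to 33.4 and 37.1 CPM (4.66 ± 0.27). HOXD3 was the lower member (-1.13 ± 0.45), a call that ended with library totals, with DESeq2 and on leaving out control replicate 2 or any ELK3-labelled library, and HOXD4 was not called (0.41 ± 0.41). Of the same 34 genes, 27 were also higher than in the vector-labelled libraries and 1 lower (median 1.02), where 30.0% of all genes tested were higher and 29.6% lower. The vector-labelled sum was 438 and 455 CPM, between the other groups.

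Kidney and trunk development factors were mostly higher. Of 26, 19 were higher than in controls and 1 lower (median 2.17). FOXC1 went from 89.9 and 77.4 to 484 and 475 CPM, FOXD1, a factor of the kidney stroma, from 1.25 and 2.37 to 60.6 and 52.8 CPM (4.95 ± 0.24) and LHX1, a factor of the early nephron, from 1.88 and 1.29 to 29.7 and 30 CPM (4.21 ± 0.27). IRX3, a patterning factor of neural tube and nephron, went from 12.8 and 12.7 to 53.6 and 56.8 CPM. PAX8 was the exception, falling from 17.8 and 18.7 to 0.159 and 0.532 CPM (-5.51 ± 0.43), and HNF4A, a factor of tubule and liver, was not called. In the vector-labelled libraries FOXC1 stood at 212 and 208 CPM, LHX1 at 10.7 and 11.8 CPM and FOXD1 at 19.8 and 23.2 CPM, each below the ELK3-labelled level (adjusted p = 6.99e-14, 1.3e-08 and 2.69e-10). Over the list, 14 of 26 were higher and 6 lower than in the vector-labelled libraries (median 0.54). Over all genes tested, 30.0% were higher and 29.6% lower than there.

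Notch genes were mostly higher. Of 17 Notch genes, 12 were higher and 3 lower (median 1.98). The Notch targets HES1, HES4 and HEY1 went from 92 and 90.3 to 326 and 334 CPM, from 15.5 and 16.8 to 127 and 126 CPM and from 4.18 and 7.31 to 81.1 and 77.3 CPM. Among receptors NOTCH3 rose from 1.05 and 2.15 to 19.1 and 20.4 CPM and NOTCH1 was not called (-0.18 ± 0.13); among ligands DLL3 and JAG2 rose (3.57 ± 0.22 and 1.98 ± 0.21) and JAG1 fell (-0.77 ± 0.17). HES1 was 3-fold and NRARP 2.82-fold higher than in the vector-labelled libraries too (adjusted p = 1.06e-16 and 1.43e-15). WNT genes were higher in 18 and lower in 7 of 31: the nuclear effectors TCF7 and LEF1 went from 18 and 14.4 to 81.7 and 87.1 CPM and from 9.2 and 10.8 to 32.8 and 32 CPM, and the target AXIN2 from 5.02 and 2.79 to 10.2 and 10.8 CPM, beside the loss of DKK1. In the BMP list, 15 of 27 were higher and 9 lower. ID3 and ID4, transcription inhibitors that BMP induces, went from 71.7 and 73.3 to 176 and 189.5 CPM and from 4.81 and 4.09 to 81.7 and 75.7 CPM, while ID1 fell from 204 and 208 to 87.6 and 84.1 CPM. NOG (noggin), which binds BMP and blocks it, fell from 60.2 and 50.5 to 2.7 and 1.7 CPM. Hedgehog genes were higher in 7 and lower in 1 of 12 (0 lower without control replicate 2 or ELK3-labelled replicate 2), among them the transducer SMO, from 1.88 and 0.86 to 17.8 and 18.7 CPM, while its target GLI1 was not called (0.39 ± 0.39).

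Genes of transforming growth factor beta signalling were lower more often than higher. Of 24, 12 were lower and 4 higher (median -0.52), beside 30.8% lower and 31.8% higher over all genes tested. The ligand TGFB2 went from 109 and 112 to 9.06 and 10.6 CPM, the receptor TGFBR2 from 66.1 and 68.8 to 10.7 and 11.2 CPM and the transducer SMAD3 from 194 and 183 to 46.9 and 45.4 CPM. SMAD4, shared with the BMP branch, was not called (-0.28 ± 0.14), and the inhibitor SMAD7 rose from 4.6 and 5.81 to 13.4 and 10.9 CPM.

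Axon guidance genes and other neural genes were higher more often than lower. Of 48 guidance genes, 25 were higher and 11 lower, beside 31.8% higher and 30.8% lower over all genes tested. SLIT2, a repellent cue, went from 49.6 and 58.1 to 385 and 389.7 CPM and its receptor ROBO1 from 16.5 and 19.4 to 102 and 105 CPM. UNC5B, a netrin receptor, went from 5.44 and 7.1 to 62.6 and 74.4 CPM, and SEMA7A, a membrane semaphorin that binds integrins, fell from 90.5 and 78.7 to 4.61 and 4.68 CPM. Of 33 neuronal genes, 17 were higher and 9 lower. DPYSL3, a growth-cone protein, rose from 7.11 and 5.81 to 82.2 and 87.5 CPM and the adhesion gene NCAM1 from 8.99 and 11.8 to 62.8 and 58.2 CPM. The neuronal tubulin TUBB3 fell from 52.1 and 53.5 to 24.2 and 19.5 CPM and L1CAM, a neural adhesion molecule of invasive tumours, from 32.8 and 32.9 to 2.38 and 2.66 CPM, so the neural genes did not move as 1 group.

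Among regulators of the G1 phase, cyclin D1, CCND1, a target of ERK and AP-1, went from 421 and 426 to 70.9 and 72.3 CPM (-2.56 ± 0.09), while CCND2 rose from 32.6 and 34 to 92.5 and 106 CPM (1.58 ± 0.12). The INK4 inhibitors CDKN2A and CDKN2B rose (3.49 ± 0.13 and 3.99 ± 0.30) and CDKN2D fell (-1.84 ± 0.12), and the kinase gene CDK4 was not called (0.02 ± 0.09). Of 43 mitosis genes, 29 were lower and 6 higher (median -0.59). UBE2C, which drives mitotic exit, went from 314 and 273 to 117 and 113 CPM and the mitotic kinase AURKA from 318 and 347 to 166 and 167 CPM. In the vector-labelled libraries UBE2C stood at 326 and 346 CPM and AURKA at 555 and 549 CPM, and 30 mitosis genes were lower in the ELK3-labelled libraries than there, where 29.6% of all genes tested were lower. Replication genes went the other way in 19 of 41, with 9 lower and a median of 0.25.

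Of 32 BCL2-family and death receptor genes, 11 were higher and 15 lower (median -0.22), beside 31.8% and 30.8% of all genes tested. BCL2L1 (BCL-XL), a guard of the mitochondrial membrane, went from 155 and 152 to 14.9 and 14.2 CPM. The death-promoting family members PMAIP1 (NOXA) and BBC3 (PUMA) went from 89.1 and 100.2 to 333 and 343 CPM and from 56.7 and 44.9 to 127 and 143 CPM. TNFRSF10B, a death receptor, fell from 92.8 and 95.9 to 46.3 and 40.3 CPM. Among stress-response genes, the ubiquitin ligase gene MDM2 went from 73.4 and 61.3 to 193 and 197 CPM, the sestrin gene SESN1 from 7.74 and 5.38 to 56.1 and 53.3 CPM and CCNG1 from 19 and 21.5 to 79.5 and 69.1 CPM. CDKN1A (p21), an inhibitor of cyclin-dependent kinases, rose little, from 79 and 75.5 to 96.2 and 99.7 CPM (0.34 ± 0.10), and the polo-like kinase gene PLK2 fell from 122 and 112 to 24 and 22.2 CPM.

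Mitochondrial dynamics, named in the title of the series, is the balance of fission and fusion. Of 19 fission genes, 9 were higher than in controls and 5 lower (median 0.2), beside 31.8% and 30.8% of all genes. The count of higher fission genes was 5 when control replicate 1 or any ELK3-labelled library was left out, and 4 with DESeq2. DNM1L, the GTPase that pinches mitochondria, went from 66.7 and 67.3 to 92.4 and 102 CPM (0.54 ± 0.10, adjusted p = 1.92e-05), and its receptor MIEF1 from 93.7 and 83.7 to 166 and 177 CPM (0.95 ± 0.09, adjusted p = 9.39e-11). The receptors FIS1 (-0.00 ± 0.13) and MFF (0.18 ± 0.11) were not called, and the formin INF2 was lower (-1.44 ± 0.22). Against the vector-labelled libraries 15 of 19 were higher and 3 lower (median 0.8), beside 30.0% and 29.6% of all genes tested. Fusion and cristae genes had 5 higher and 9 lower of 21 (5 lower with library totals): MFN2 rose from 75.1 and 76.3 to 114 and 109 CPM and OPA1 fell from 103 and 101 to 66.2 and 58 CPM. Mitophagy genes had 9 higher and 5 lower of 25, with PINK1, the kinase that marks damaged mitochondria, at 37.9 and 55 CPM in the controls and 89.4 and 73.9 CPM in the ELK3-labelled libraries. Respiratory chain subunits were even, 29 higher and 29 lower of 81 (median -0.01), and of 76 mitochondrial ribosomal protein genes 33 were lower and 17 higher (30 higher with library totals).

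Metabolic and redox genes leaned to the lower side with exceptions. Of 38 hypoxia and glycolysis genes, 27 were lower and 6 higher (median -0.6), beside 30.8% lower and 31.8% higher over all genes tested. Lactate transporters moved in opposite directions: SLC16A3 (MCT4), the exporter of glycolytic cells, went from 125 and 101 to 5.09 and 5.32 CPM and SLC16A1 (MCT1) from 65 and 63.9 to 348 and 374 CPM. PKM, the last enzyme of glycolysis, went from 1293 and 1217 to 422 and 427 CPM. Of 27 NRF2 genes, 16 were lower and 4 higher: NQO1 went from 165 and 162 to 14 and 13.1 CPM and the factor gene NFE2L2 from 150.4 and 144 to 56.3 and 54.2 CPM. Sterol and fatty acid genes were higher in 16 and lower in 5 of 33 (3 lower without control replicate 2 or ELK3-labelled replicate 1), HMGCS1 going from 57.9 and 69.9 to 229.6 and 254 CPM, an early enzyme of cholesterol synthesis. MT2A, a metal-binding protein gene chosen after its values were seen, fell from 3068 and 3502 to 371 and 382 CPM.

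Some genes set the ELK3-labelled libraries apart from both other groups. Called higher than in controls and higher than in vector-labelled libraries were 1744 genes (11.3%), and 1334 (8.67%) were called lower than in both. Both comparisons use the same ELK3-labelled libraries, so these counts are a description. By the size of the smaller change the 10 highest included the developmental factors HAND1, SOX3, FOXD2, POU3F3, TBX2 and MEIS3. In controls, vector-labelled and ELK3-labelled libraries in that order, FOXD2 stood at 1.88 and 2.58, at 6.02 and 4 and at 23.1 and 21.1 CPM, and the X-linked gene TRO at 3.14 and 6.67, at 11.6 and 10.2 and at 62.6 and 61.6 CPM. CITED1, a cofactor of kidney progenitors, stood in the same order of groups at 1.25 and 2.37, at 6.46 and 5.2 and at 24.3 and 22.2 CPM. ARHGAP8 and ZNF853 complete the 10.

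The 10 lowest against both groups held ELK3, whose low level was known when these libraries were chosen, and ETV5, both described above. HKDC1, a hexokinase-like gene, stood in the same order at 39.9 and 48, at 26.6 and 23.6 and at 1.27 and 1.38 CPM. KCNN4, a calcium-activated potassium channel gene, stood in the same order at 33.9 and 38.3, at 11.3 and 7.2 and at 1.11 and 1.17 CPM. STC1, a secreted glycoprotein hormone gene, stood at 90.5 and 98.9, at 343 and 358 and at 11.8 and 11.6 CPM. For STC1 the vector-labelled libraries were highest, and for HKDC1 and KCNN4 the controls. PLEK2, with 292 counts over both controls and 2 over both ELK3-labelled libraries, had a ratio of 243.0 (exact 95% counting interval 66.7 to 2020.0). AP1M2, FMN1, FLG and ZBED5-AS1 complete the 10.

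Calls were spread unevenly over chromosomes. Over 14377 tested genes with 1 position in GENCODE 29, the share called higher ran from 17.6% on chromosome 3 to 55.9% on chromosome 22, where 13.8% were lower. The X chromosome had 50.4% higher and 16.5% lower, chromosome 21 had 46.0% and 15.1%, and chromosome 16 had 43.2% and 17.2%. On chromosome 3, 45.7% were lower, and on chromosome 20, 45.6% were lower and 20.1% higher. Median log2 fold changes were 0.53 on chromosome 22, 0.45 on X, -0.31 on chromosome 3 and -0.3 on chromosome 20. Against the vector-labelled libraries the medians of the same chromosomes were -0.06, -0.08, -0.1 and 0.03, and all chromosomes lay between -0.21 (chromosome 19) and 0.2 (chromosome 5). In 348 blocks of 40 tested genes in chromosome order, 45 had a median against controls of 0.5 or more and 28 of -0.5 or less. The range was -0.95, for a block of chromosome 9 from ST6GALNAC6 to PRRX2 with 32 genes lower and 2 higher, to 1.05, for a block of X from RAP2C to CXorf40A with 31 higher and 2 lower. DNA copy number was not measured, and its part in these differences was not tested.

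**Figure D5:**
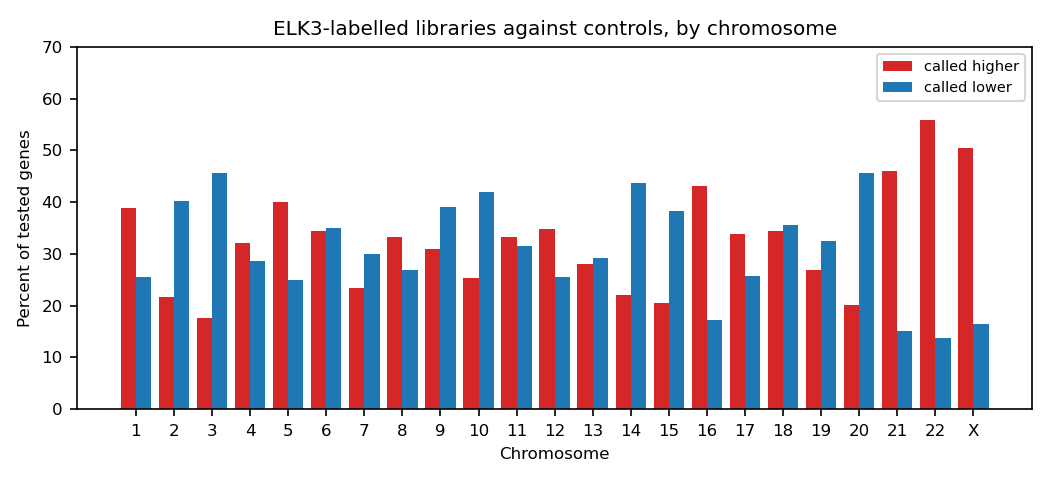
Percent of tested genes called higher (red) and lower (blue) in ELK3-labelled libraries than in controls, for each autosome and X; the percent axis starts at 0. Chromosomes 22, X and 21 have the largest shares higher and chromosomes 3 and 20 the largest shares lower.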

How the data were processed

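The deposited values are read counts per gene, 1 column per library, for 6 QuantSeq libraries made from 500 ng of total RNA. The submitters' processing notes name Bowtie2, edgeR and hg19. The counting tool, the annotation and all versions are not given in the sources used here, and how the authors treated reads that match several genes is likewise not given. Of 25737 lines, 1561 shared 286 symbols and were summed, which left 24462 genes. Libraries were assigned to groups by their titles. Each table column was matched to its library through its name in the file headers and the labels, which conflict as the report states.

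Counts were fitted with edgeR 4.0.16 (R 4.3.3, limma 3.58.1): TMM scaling, filterByExpr, a robust quasi-likelihood fit of all 6 libraries with a mean per group (3 residual degrees of freedom) and Benjamini-Hochberg adjustment over 15386 genes, with an adjusted p under 0.05 called. CPM values are scaled by TMM. Library totals ran from 4884483 to 9131214 counts over the 6 libraries, and intervals and limits cover counting error only. On simulated counts with 200 changed genes, 81 of 100 were found at a log2 change of 1 and 91 of 100 at 2, with 10 false calls among 15186. In the data 62.6% of the genes tested were called, far more than were changed there. The simulation therefore does not give the rate of false calls where scaling matters. Same-numbered libraries of different groups did not deviate together (r of -0.056, 0.033 and -0.001), so numbers pair nothing.

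Members, gene lists and named genes were chosen with earlier results of these data known. Named genes were ELK3 and its relatives; the 15 called genes of 100 CPM or more with the largest change in each direction; the 10 each way most distant from both groups with 20 CPM or more; and per list up to 5 members with the smallest p and the defining ones. Other list members were named after their values were seen, and some genes these rules select are not reported here. Alternatives were other scalings, DESeq2 1.42.0, limma-voom, other filters, a replicate block, a fit of 4 libraries, leaving out each library, and leaving out symbols on several lines. Figures used matplotlib 3.10.9.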

Additional observations from a re-analysis of the deposited data

How the results depend on the processing

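Of 234 named genes, 225 kept their direction and their side of the threshold under every alternative, 0 reversed in any, 8 lost their call in at least 1 and 1 gained one. The 8 are AMOTL1, GADD45B, BCL2, ETV7, HOXD3, MKL2, PLG and ST6GALNAC6; MFF gained a call with library totals. Of 89 recomputed counts of called genes, 88 stayed within 1.5 times. The exception was the count of at least 2-fold higher genes, 1583 with a minimum of 10 CPM in 2 libraries against 2455, where fewer genes were tested. Leaving out 1 library at a time gave 4248 to 4903 higher and 4238 to 4840 lower genes, and in such fits a lone library is assumed to vary like the other groups. With DESeq2, 3944 were higher and 3978 lower, and with library totals 5911 and 3763. With the replicate block, 4841 were higher and 4690 lower. Counts within gene lists stayed within 1.5 times in 1846 of 1920 recomputations, and values for leaving out 1 library stand beside the list counts they move, except that 2 HOX genes were lower when either vector-labelled library was left out. With 3 counts standing for 0.329 to 0.614 CPM, differences among genes near that level were not detectable at this depth.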

Other observations

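Of 31 ATF4 targets and serine synthesis genes, 10 were higher and 12 lower than in controls (median -0.14), beside 31.8% and 30.8% of all genes tested. PHGDH, the first enzyme of serine synthesis, went from 19.2 and 15.7 to 157 and 160.0 CPM (3.18 ± 0.12), while PSAT1, the next enzyme, fell from 177 and 197 to 90 and 85.3 CPM (-1.09 ± 0.09). SLC7A11, the cystine importer, fell from 162 and 167 to 46 and 46.8 CPM, and SESN2 rose from 47.9 and 49.9 to 161 and 161 CPM. Of 31 lysosome genes, 14 were lower and 5 higher (9 higher with library totals, 3 without ELK3-labelled replicate 2), with the cholesterol carriers NPC1 (-1.61 ± 0.12) and NPC2 (-1.54 ± 0.09) and the protease CTSB (-1.23 ± 0.09) among the lower.

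Of 27 DNA methylation and Polycomb genes, 10 were higher and 8 lower, near the shares of all genes given above. The maintenance methyltransferase gene DNMT1 went from 512 and 614 to 242 and 238 CPM and its partner UHRF1 from 70.3 and 71 to 37.7 and 30.7 CPM, while the de novo enzyme DNMT3B rose from 13.8 and 14.4 to 43.2 and 43.6 CPM. Against the vector-labelled libraries 18 of these 27 were higher and 2 lower, beside 30.0% and 29.6% of all genes tested. Among 14 oncofetal genes, 6 were higher and 4 lower. The architectural pair HMGA1 and HMGA2 moved in opposite directions, HMGA1 from 1475 and 1336 to 288 and 278 CPM and HMGA2 from 73.6 and 82.1 to 266 and 252 CPM. LIN28B, which blocks let-7 maturation, went from 3.56 and 5.81 to 62.5 and 65 CPM. Of 31 histone genes, 15 were lower and 2 higher (1 higher without control replicate 2 or ELK3-labelled replicate 2), and of 88 cytosolic ribosomal protein genes, 35 and 22 (38 higher with library totals).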
